A study of Mus musculus with 768 samples.

Results

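Notch signalling genes and arterial connexin genes were followed in mouse endothelial cells: the receptors Notch1 and Notch4, the ligands Dll4, Jag1 and Jag2, the targets Hey1, Heyl and Hes1, and the gap junction genes Gja4 and Gja5. They were chosen by symbol, and all 10 were found among 51734 features. Single CD45-negative, CD31-positive cells came from 3 sort gates. LN_HEV cells were MECA-79-positive and from lymph node (plates pool1 and pool2). TU_HEV cells (pool3 and pool4) and TU_EC cells (poolA to poolD) were from PyMT tumours, where the first carried MECA-79 and the second did not. MECA-79 is an antibody to a sulfated sugar epitope of high endothelial venules, the vessels through which lymphocytes enter lymph nodes, and PyMT is a mouse model of mammary carcinoma. Tumour suspensions had been depleted of CD45-positive and EpCAM-positive cells with beads. The labels name no strain, age, treatment or animal, so each gate counts as 1 sample and no test was possible. Plates are given as the visible spread, and whether they hold different animals is not stated.

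From plates of 96 wells, 64 and 80 LN_HEV cells were retained (pool1 and pool2), 50 and 48 TU_HEV cells, and 68, 81, 82 and 72 TU_EC cells. LN_HEV cells had a median of 1059962.5 counts, with extremes of 96741 and 1678516. The median was 1431389 for TU_HEV cells (276667 to 4002554) and 625611 for TU_EC cells (58737 to 2216188). Before any comparison, 11 libraries of pool1 were dropped, since each held at least 99.82% of the counts of 1 or more of 19 TU_HEV libraries, gene by gene. Another 3 pool1 libraries (numbers 26, 29 and 33) held 3 further TU_HEV libraries that were not retained. They stayed in, and leaving them out as well moved none of the members' 27 ratios between groups by over 1.5 times. Keeping the 11 libraries moved 2 ratios that far, both of Hey1, and leaving out the TU_HEV libraries they held moved none. All 5 pan-endothelial genes stood above 10 CPM in each group (CPM scales the summed counts of a group or plate to a common total). The high endothelial genes Glycam1, Chst4, Fut7 and Enpp2 summed to 70420 CPM in LN_HEV. They reached 744 CPM in TU_HEV and 18.5 in TU_EC, where Chst4 and Fut7 had 0 counts. TU_EC libraries form a numbering series and a file of their own, so a difference between the gates and one between these sets of libraries cannot be told apart for any comparison with TU_EC. Each plate held cells of its own gate only, so gate and plate cannot be told apart for TU_HEV against LN_HEV either.

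Notch receptors are cut when a ligand on a neighbouring cell binds them. The freed part enters the nucleus, joins the DNA-binding protein RBPJ and switches on repressor genes of the Hey and Hes families. In growing vessels Dll4 marks leading tip cells and restrains sprouting in their neighbours, and Notch activity favours arterial over venous identity. Gja4 and Gja5 encode the gap junction proteins of arterial endothelium.

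The start regions of members that the results turn on are shown first: Notch4 and Dll4, which were often detected in the same TU_EC cells, and Gja4 and Gja5, which were high in cells with other arterial genes. RefSeq promoter entries (GRCm38.p6, 250 bases before to 50 after the annotated start) were found for 7 of 10 members. The members without a match were Hey1, Heyl and Hes1. Notch4 covers chr17:34564045-34564344 (plus strand), Dll4 chr2:119325534-119325833 (plus), Gja4 chr4:127313990-127314289 (minus) and Gja5 chr3:97032152-97032451 (plus), each printed 5′ to 3′ on the strand of its gene. Capitals mark a match to the NF-kB motif, which both times was read on the opposite strand.
Notch4: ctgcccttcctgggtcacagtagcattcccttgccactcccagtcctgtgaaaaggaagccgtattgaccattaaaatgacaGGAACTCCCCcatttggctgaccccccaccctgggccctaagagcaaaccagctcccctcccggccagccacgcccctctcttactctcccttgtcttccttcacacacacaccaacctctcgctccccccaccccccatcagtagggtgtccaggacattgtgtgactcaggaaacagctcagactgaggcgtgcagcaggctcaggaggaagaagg
Dll4: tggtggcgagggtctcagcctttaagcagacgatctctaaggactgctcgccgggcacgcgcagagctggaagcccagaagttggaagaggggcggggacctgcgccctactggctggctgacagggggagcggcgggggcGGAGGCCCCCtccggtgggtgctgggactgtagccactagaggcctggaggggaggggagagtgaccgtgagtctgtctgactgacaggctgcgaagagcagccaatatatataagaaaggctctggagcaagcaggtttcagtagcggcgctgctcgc
Gja4: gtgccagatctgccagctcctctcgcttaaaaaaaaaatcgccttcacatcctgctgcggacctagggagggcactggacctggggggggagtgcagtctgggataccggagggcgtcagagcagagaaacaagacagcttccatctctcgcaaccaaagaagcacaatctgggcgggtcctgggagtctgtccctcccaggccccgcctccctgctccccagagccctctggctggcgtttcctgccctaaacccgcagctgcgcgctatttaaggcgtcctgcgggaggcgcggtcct
Gja5: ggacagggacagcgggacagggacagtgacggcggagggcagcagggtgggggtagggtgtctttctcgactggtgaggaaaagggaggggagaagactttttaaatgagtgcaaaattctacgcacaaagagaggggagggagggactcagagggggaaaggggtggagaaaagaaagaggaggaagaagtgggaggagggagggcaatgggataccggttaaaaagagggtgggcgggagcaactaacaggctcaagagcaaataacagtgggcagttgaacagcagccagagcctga
The NF-kB motif was in 2 of the 7 members and in 8.46% of 32851 promoters of the same length. The RBPJ site (GTGGGAA or GTGAGAA, either strand) was in 0 of 7 members and 10.6% of all promoters. The E-box CACGTG, which Hey and Hes proteins can bind, was in 0 of 7 and 7.15%. The SOX motif ACAATGG was in 0 of 7 and 3.66%, and the ETS motif CCGGAAGT in 0 of 7 and 3.89%. A match describes letters in these windows only.

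The receptors were lowest in LN_HEV and highest in TU_EC. Notch1, on chromosome 2 from 26457903 to 26516663 (GRCm38), encodes the main Notch receptor of endothelium. It stood at 83.4 and 111.4 CPM in pool1 and pool2, at 249.1 and 289.3 in pool3 and pool4, and at 335.4, 390.4, 356.1 and 408.7 in poolA to poolD. No plate of one group reached the range of another. Summed over cells, the LN_HEV level of Notch1 was 99.9 CPM (95% Poisson interval 98.3 to 101.5), the TU_HEV level 271.6 (268.9 to 274.2) and the TU_EC level 372.9 (370.3 to 375.4). TU_HEV was 2.72-fold above LN_HEV and 1.37-fold below TU_EC. These intervals cover counting error only, and copies made by PCR are not independent molecules.

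Notch4, a receptor largely restricted to endothelium (chromosome 17 from 34564268 to 34588503), had the wider span of the pair. Its CPM was 9.19 and 6.51 in the LN_HEV plates, 39.2 and 78.6 in the TU_HEV plates, and 242.4, 190.2, 233.7 and 210.1 in the TU_EC plates. Again the ranges of the 3 groups lay apart. TU_HEV was 8.04-fold above LN_HEV (interval 7.55 to 8.57) and 3.57-fold below TU_EC (3.49 to 3.65), and LN_HEV was 28.7-fold below TU_EC. Without pool4, the TU_HEV ratios were 5.15-fold above and 5.57-fold below. Sums of a group do not separate fewer expressing cells from less RNA per cell, so cells were also counted after each was thinned to 100000 counts. Notch4 then had a count in 11.9% of LN_HEV cells (exact binomial interval 7.08 to 18.4), 26.5% of 98 TU_HEV cells (18.1 to 36.4) and 75.0% of 300 TU_EC cells (69.7 to 79.8). Without thinning the shares were 13.2%, 28.6% and 77.9%. Notch1 was detected more evenly, in 55.2%, 74.5% and 82.3% of thinned cells and 62.5%, 78.6% and 84.8% of whole ones.

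**Figure D1:**
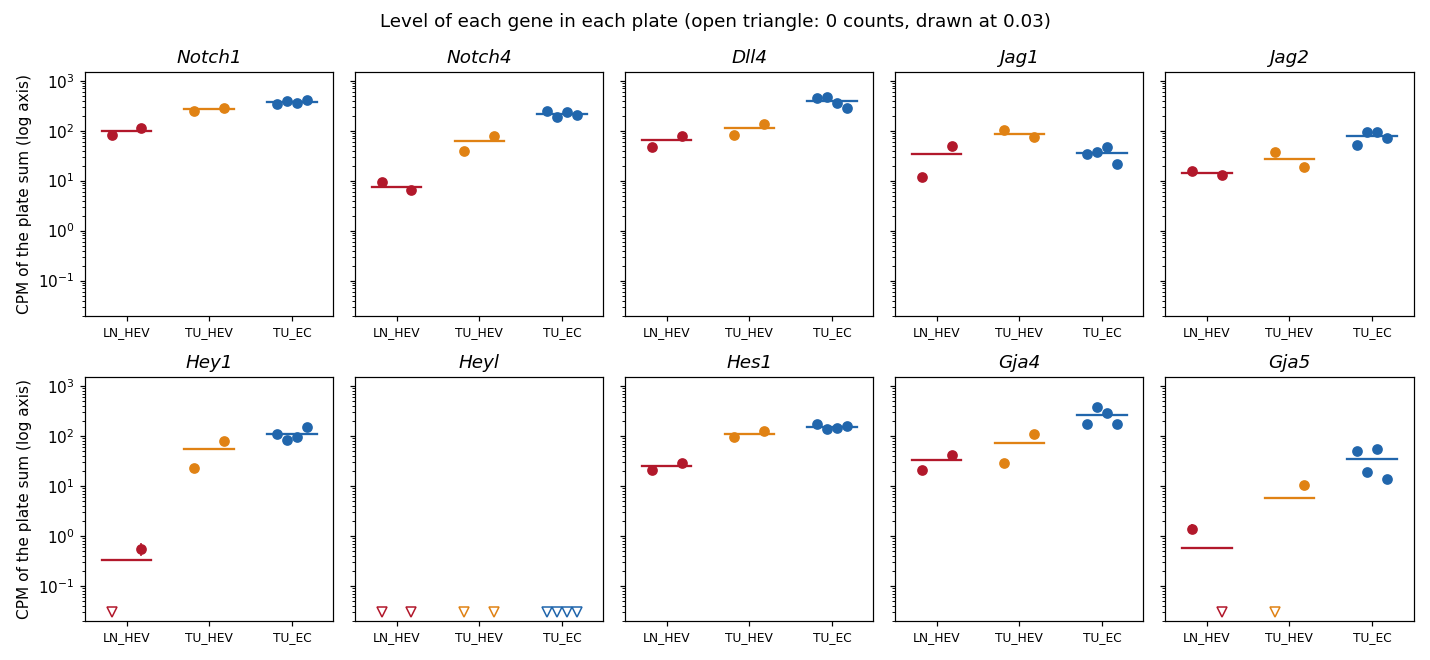
CPM of the plate sum for each gene on a log axis, 1 point per plate with its 95% Poisson interval (mostly within the point) and a short line at the group value. An open triangle marks a plate with 0 counts. TU_EC plates stood highest for Notch1, Notch4, Dll4, Jag2, Hey1, Hes1, Gja4 and Gja5, Jag1 stood highest in TU_HEV, and Heyl had 0 counts in every plate.

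Among the ligands, Dll4 and Jag2 followed the receptors and Jag1 did not. Dll4, the ligand of tip cells and arteries (chromosome 2 from 119325784 to 119335962), stood at 46.5 and 77.0 CPM in the LN_HEV plates and at 80.0 and 135.6 in the TU_HEV plates. In the TU_EC plates it stood at 459.7, 463.4, 351.1 and 287.3 CPM. TU_EC lay above every plate of both MECA-79-positive groups, while the nearest plates of LN_HEV and TU_HEV differed by a log2 ratio of 0.06. TU_HEV was 1.72-fold above LN_HEV (1.44, 2.39, 2.10 and 1.24 without pool1, pool2, pool3 and pool4) and 3.53-fold below TU_EC. Dll4 was detected in 33.6%, 36.7% and 71.3% of LN_HEV, TU_HEV and TU_EC cells after thinning.

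Jag1, a ligand that smooth muscle and endothelium use in the arterial wall (chromosome 2 from 137081456 to 137116644), was the member with its highest level in TU_HEV. It stood at 101.9 and 75.4 CPM in the TU_HEV plates, against 11.6 and 49.5 in LN_HEV and 34.0, 37.2, 46.6 and 21.3 in TU_EC. Both TU_HEV plates were above all 6 others, and the LN_HEV and TU_EC plates overlapped. TU_HEV was 2.56-fold above LN_HEV (interval 2.48 to 2.65) and 2.46-fold above TU_EC (2.395 to 2.534). The first ratio was 7.48 without pool2 and 1.76 without pool1. The second was 1.85 after trimmed-mean (TMM) scaling, still higher but under 2-fold. LN_HEV stood 1.04-fold below TU_EC, and 3.03-fold below it without pool2. Jag1 was detected in 44.9% of TU_HEV cells (interval 34.8 to 55.3), 33.6% of LN_HEV cells (25.9 to 41.9) and 26.7% of TU_EC cells (21.7 to 32.1), and without thinning in 51.0%, 38.9% and 30.7%.

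Jag2, the third ligand (chromosome 12 from 112907819 to 112929776), was low in LN_HEV, at 15.7 and 12.8 CPM. It was at 37.5 and 18.8 CPM in the TU_HEV plates and at 52.6, 94.8, 95.3 and 69.7 in the TU_EC plates, without overlap between groups. TU_HEV was 1.94-fold above LN_HEV and 2.94-fold below TU_EC. The first ratio was 2.12, 1.72, 1.35 and 2.68 without pool1, pool2, pool3 and pool4. Jag2 was detected in 13.3%, 17.3% and 49.3% of LN_HEV, TU_HEV and TU_EC cells.

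The target genes differed from one another in how they were spread over groups and cells. Hey1, a repressor of arterial endothelium (chromosome 3 from 8663359 to 8667256), had 0 counts in pool1 and 0.549 CPM in pool2. It stood at 22.8 and 78.0 CPM in the TU_HEV plates and at 108.1, 83.0, 95.5 and 150.1 in the TU_EC plates. Groups were separated in every plate. The ratio of TU_HEV to LN_HEV was 165.8 (interval 124.6 to 225.9) and rests on 47 counts in LN_HEV. It was 34.3 with equal weight per cell, 51.5 with the 11 dropped pool1 libraries kept, 97.8 without pool1 and 70.6 without pool4. Without pool2 LN_HEV has 0 counts and the ratio was at least 1067, against a floor of 3 counts in pool1. The size of this ratio is therefore poorly fixed, while each of these values was far above 2-fold. LN_HEV was 332.1-fold below TU_EC, which was 71.8-fold with equal weight per cell, 103.2-fold with the 11 libraries kept, 195.8-fold without pool1 and at least 2136-fold without pool2. TU_HEV was 2.00-fold below TU_EC, a value at the edge of the 2-fold limit. It was 1.38-fold below it without pool3, 4.71-fold without pool4 and 1.72-fold without the TU_HEV libraries that pool1 libraries held.

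In TU_HEV the level of Hey1 came from few cells. Only 9 of 98 cells had a count, from 3.33 to 1853 CPM with a median of 205.2, and 1 cell held 52.9% of the counts. The 5 highest cells held 95.8%. In TU_EC 100 cells had a count and the 5 highest held 20.7%. After thinning, Hey1 was detected in 9.18% of TU_HEV cells (interval 4.29 to 16.7), 31.0% of TU_EC cells (25.8 to 36.6) and 0.699% of LN_HEV cells (0.0177 to 3.83). The unthinned shares were 9.18%, 33.0% and 1.39%.

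Hes1, a repressor that many signals besides Notch induce (chromosome 16 from 30064384 to 30067796), differed as little as Notch1 between both tumour groups. It stood at 20.4 and 29.1 CPM in LN_HEV, at 95.6 and 124.3 in TU_HEV, and at 176.7, 138.6, 143.9 and 158.2 in TU_EC. TU_HEV was 4.37-fold above LN_HEV (interval 4.21 to 4.53) and 1.37-fold below TU_EC. Detection was 28.7%, 46.9% and 68.7% of thinned LN_HEV, TU_HEV and TU_EC cells, and 37.5%, 61.2% and 75.9% of whole ones.

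Heyl, the Hey family member of vessel wall muscle cells (chromosome 4 from 123233556 to 123249875), had 0 counts in all retained cells. Taken as 3 cells of the total, a count of 0 in 300 thinned TU_EC cells allows a share with a count of up to 1.00%, and in TU_HEV and LN_HEV of up to 3.06% and 2.10%. The exact intervals end at 1.22%, 3.69% and 2.55%. Notch3, the receptor of mural cells, also had 0 counts in the 3 groups. The 6 genes of the mural and fibroblast list summed to 1.98 CPM in lymph node cells and to 2.19 and 9.90 in TU_HEV and TU_EC, with none above 10 CPM. Notch3 is in this list, and cells with 3 or more of its genes at 10 CPM had been filtered out. The low values, and the limits for Heyl, therefore hold for cells retained by that filter only.

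The arterial connexins were highest in TU_EC and uneven between plates and cells. Gja4 (chromosome 4 from 127311421 to 127314039) stood at 20.7 and 40.6 CPM in LN_HEV, at 28.8 and 108.7 in TU_HEV, and at 171.5, 384.7, 286.9 and 175.3 in TU_EC. The LN_HEV and TU_HEV plates overlapped, and TU_EC lay above both. TU_HEV was 2.26-fold above LN_HEV by its sum. It was 1.81-fold above without pool1, 3.55-fold above without pool2 and 1.13-fold below without pool4. Detection gave the opposite order, in 15.4% of LN_HEV cells (interval 9.90 to 22.4) and 7.14% of TU_HEV cells (2.92 to 14.2), so no order of these groups is given. Of the TU_HEV counts, 99.5% lay in 5 cells. TU_HEV was 3.57-fold below TU_EC (9.10-fold without pool4), and LN_HEV 8.08-fold below it (12.7-fold without pool2).

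Gja5 (chromosome 3 from 96904693 to 97077416) was near 0 in the MECA-79-positive groups. It stood at 1.39 and 0 CPM in the LN_HEV plates and at 0 and 10.2 in the TU_HEV plates, against 48.9, 18.8, 54.4 and 13.7 in the TU_EC plates. A single LN_HEV cell had all 83 counts of that group, and 1 of 2 TU_HEV cells had 99.9% of its 837. The ratio of these groups, 10.0 by the sums, is therefore 1 cell against 1 cell, and without these cells 1 count in TU_HEV and 0 in LN_HEV are left. Relative to TU_EC, TU_HEV was 5.95-fold lower, 3.32-fold without pool3 and at least 732-fold without pool4, since pool3 had 0 counts. LN_HEV was 59.6-fold lower than TU_EC, 24.5-fold without pool2 and at least 972-fold without pool1. Without the cells that hold 3 or more other arterial genes, LN_HEV was instead 3.16-fold higher, which again is that 1 LN_HEV cell. Even in TU_EC only 17 cells had a count, of which the 5 highest held 74.6%.

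**Figure D2:**
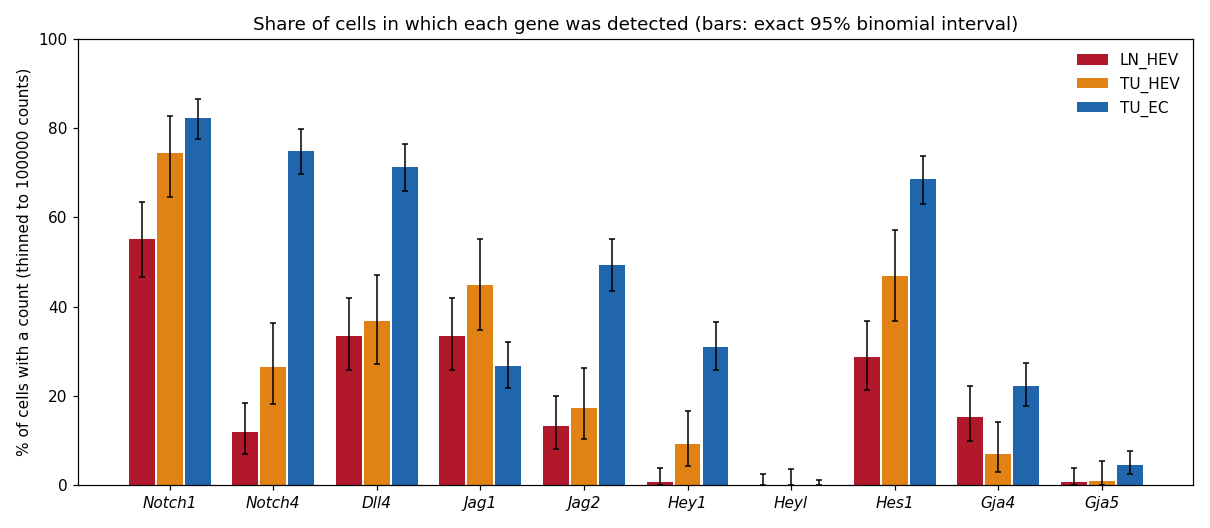
Percent of cells with a count of each gene after thinning to 100000 counts, with exact 95% binomial intervals, for 98 TU_HEV cells, 300 TU_EC cells and all but 1 of the LN_HEV cells. Every member but Jag1 and Heyl was detected in a larger share of TU_EC cells than of TU_HEV cells, and Jag1 in a larger share of TU_HEV cells. The intervals take cells as independent draws, so they do not cover a spread between animals and test no difference between gates.

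Between genes, levels were compared per kilobase of exon, over all annotated transcripts. In TU_EC the order was Gja4 at 155.5 CPM per kb, Dll4 at 101.8, Hes1 at 75.2, Hey1 at 32.9, Notch4 at 27.1, Notch1 at 26.2, Jag2 at 11.4, Jag1 at 6.07 and Gja5 at 5.92. In TU_HEV Hes1 led with 54.8 CPM per kb, Gja4 followed with 43.6 and Dll4 with 28.8, and Jag1 at 14.9 stood above Notch4 at 7.59 and Jag2 at 3.89. LN_HEV was led by Gja4 at 19.2 CPM per kb and Dll4 at 16.7, while Notch4 stood at 0.944 and Hey1 at 0.0991. Dll4, Gja5 and Notch1 have exons that overlap a gene on the other strand, and the strand setting of the counting is not given in the sources used here. The overlapping Gpr89 stood at 24.6 CPM in LN_HEV and 23.6 in TU_HEV, and the other overlapping genes at under 10 CPM in each group.

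Read as a set, 6 of the 8 members with at least 10 CPM in the higher group were at least 2-fold higher in TU_HEV than in LN_HEV (Notch1, Notch4, Jag1, Hey1, Hes1 and Gja4), against 21.8% of 9437 features. None was 2-fold lower, against 8.85%. Gja4 counts here by its sum alone: its plates overlapped, its detection had the opposite order, and without pool4 its ratio was 0.889. For 4 members (Notch1, Notch4, Hey1 and Hes1) the 2-fold difference held in all 4 pairs of plates, which 11.2% of features did in this direction and 3.98% in the other. Against TU_EC, TU_HEV was at least 2-fold higher for 1 of 9 members, Jag1 (20.6% of 9245 features), and lower for 6, namely Notch4, Dll4, Jag2, Hey1, Gja4 and Gja5 (6.55%). Notch4 and Dll4 were lower in all 8 pairs of plates (2.23% of features) and none was higher in all of them (6.12%). LN_HEV was at least 2-fold lower than TU_EC for 8 of 9 members, each in all 8 pairs (15.6% of 9230 features by the sums, 8.42% in all pairs). Jag1 was the exception, at a ratio of 0.961, and 0 were higher (17.1% and 6.23%). These comparisons share their groups, so their counts are not independent.

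The median log2 ratio of the members was 1.4005 for TU_HEV over LN_HEV, -1.55 for TU_HEV over TU_EC and -2.60 for LN_HEV over TU_EC. All features with 10 CPM had medians of 0.29, 0.40 and 0.13, so that the members lay 1.11 above, 1.96 below and 2.74 below them. TMM scaling brought the medians of all features to 0.01, -0.01 and 0.00. It also changed their split, to 15.2% higher and 14.1% lower for TU_HEV over LN_HEV, and to 10.7% higher and 12.4% lower for TU_HEV over TU_EC. No member with a 2-fold difference changed direction under the 4 other scalings tried. The ratio of Jag1 between TU_HEV and TU_EC fell under 2-fold in all 4, and that of Gja4 between TU_HEV and LN_HEV in 3. Lymphatic markers, summing to 488 CPM in TU_EC against 34.3 in TU_HEV and 17.1 in LN_HEV, moved with TU_EC. Without the 9 TU_EC cells that had 3 or more of the 5 lymphatic markers, no ratio of a member moved by over 1.5 times.

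**Figure D3:**
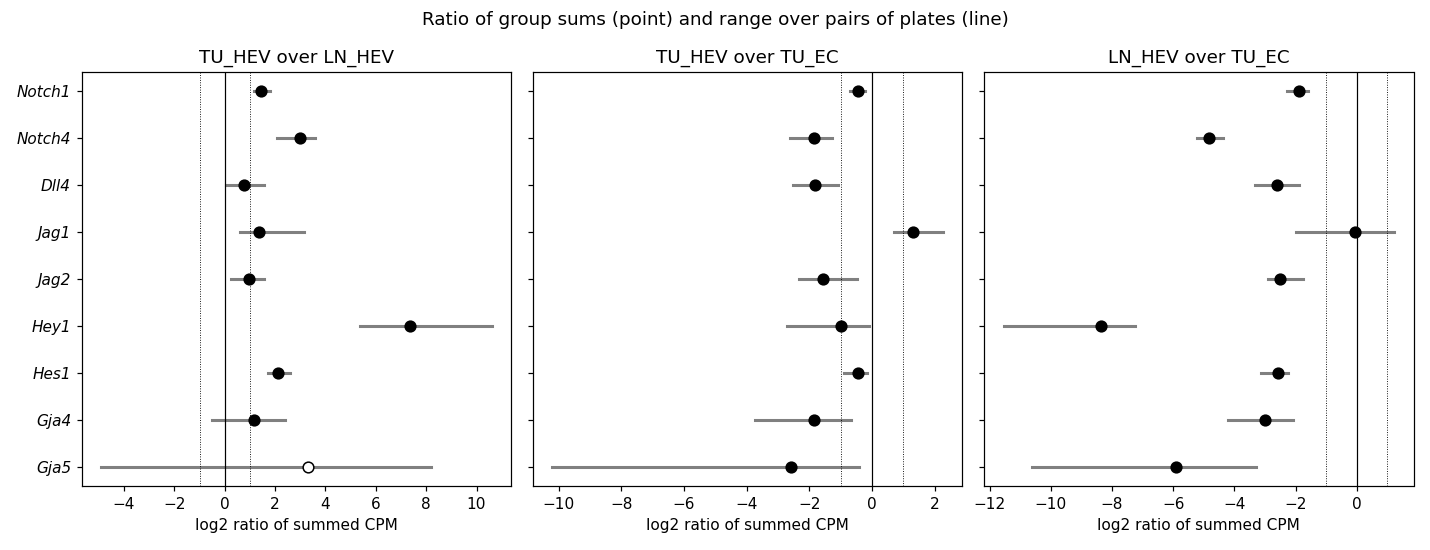
Log2 ratio of summed CPM for the 9 members with counts in the 3 comparisons (points, open where neither group reached 10 CPM), with the range over pairs of plates as a line and dotted lines at 2-fold. Notch1, Notch4, Hey1 and Hes1 lay beyond 2-fold in every pair for TU_HEV over LN_HEV, whereas the lines of Gja4 and Gja5 crossed 0.

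Other genes of the pathway were counted by list. Among 25 genes of Notch processing and modification, 19 reached 10 CPM in TU_HEV or LN_HEV. By the sums, the proteases Adam10 and Furin were 2-fold higher in TU_HEV, at ratios of 2.07 and 3.70, and the glycosyltransferase Lfng was 2.25-fold lower. Only 1 of the 2 higher genes kept a 2-fold difference in every pair of plates, and Lfng did not. Over all features 21.8% were higher and 8.85% lower, and the list's median log2 ratio was 0.19, against 0.29. Of 12 genes of the nuclear complex all reached 10 CPM, and 2 were higher in TU_HEV by the sums. These were the histone deacetylase gene Hdac1 (2.32-fold) and the coactivator gene Maml3 (6.57-fold), and neither was 2-fold higher in every pair of plates. Of 6 other receptors and ligands 2 reached 10 CPM, and 1 differed by 2-fold: Notch2, at 26.3 CPM in LN_HEV, was 3.81-fold lower in TU_HEV at 6.91, opposite to Notch1 and Notch4. Adam10, Furin, Lfng, Hdac1 and Maml3 were picked after their values were seen.

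Of 9 other Notch targets 5 reached 10 CPM, and Nrarp and Myc were higher in TU_HEV than in LN_HEV in all pairs of plates. Over all features 11.2% were. Nrarp, a feedback inhibitor of Notch that responds directly to it, stood at 136.2 CPM in TU_HEV and 3.55 in LN_HEV, a 38.3-fold difference, and at 114.5 in TU_EC. Myc, a growth regulator, stood at 221.2, 13.1 and 51.6 CPM in TU_HEV, LN_HEV and TU_EC, and was chosen after its values were seen. Gja1, the gap junction gene found widely outside arteries and also chosen after its values were seen, stood at 94.7, 794.4 and 594.6 CPM in LN_HEV, TU_HEV and TU_EC. TU_HEV was 8.39-fold above LN_HEV.

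For TU_HEV over TU_EC, 2 of 20 processing genes were higher and 2 lower, and 2 of 12 nuclear complex genes were higher and 0 lower, beside 20.6% higher and 6.55% lower over all features. By the rule for named genes only Maml2, a coactivator, was named among these, at 89.1 against 14.2 CPM (6.26-fold). For LN_HEV over TU_EC, 6 of 21 processing genes were higher and 3 lower (17.1% and 15.6% over all features), with Psen2, the catalytic subunit of the gamma-secretase that cuts Notch, at 158.2 against 27.7 CPM (5.71-fold). Notch2 was 5.45-fold higher in LN_HEV than in TU_EC.

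Other arterial genes, of which 23 were found, had a median log2 ratio of 2.56 for TU_HEV over LN_HEV, -0.57 for TU_HEV over TU_EC and -3.59 for LN_HEV over TU_EC. Of 17 with 10 CPM, 11 were higher in TU_HEV than in LN_HEV and 1 lower, each in all pairs of plates. Over all features these shares were 11.2% and 3.98%. The secreted growth factor binder Igfbp3 stood at 718.5 against 9.99 CPM, the vasoconstrictor precursor gene Edn1 at 63.9 against 1.53 and the transcription factor gene Sox7 at 304.4 against 18.0. Cxcr4, a chemokine receptor of tip cells, had 0 counts in LN_HEV and was at least 556-fold higher in TU_HEV, with LN_HEV set to 3 counts in all. Clu, a secreted chaperone, was the gene that was lower, by 28.5-fold. Against TU_EC, 9 of 21 were lower in TU_HEV and 2 higher (Clu and Tm4sf1, a membrane protein, at 3.51-fold). Over all features 6.55% were lower and 20.6% higher. Bmx, a kinase of arterial endothelium, had 0 counts in TU_HEV and was at least 539-fold lower, the matrix protein gene Mgp 448-fold, the semaphorin Sema3g 23.2-fold, the neuronal protein gene Stmn2 12.1-fold, Igfbp3 7.46-fold and the guidance receptor Unc5b 5.33-fold. LN_HEV was 2-fold lower than TU_EC for 15 of 21 and higher for 1, Clu, beside 15.6% and 17.1% of all features. Igfbp3, at 5360 CPM in TU_EC, was 537-fold lower in LN_HEV.

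Venous genes stood beside this difference. Of 8, 4 were higher in TU_HEV than in TU_EC and 0 lower, beside 20.6% and 6.55% of all features. Among the 4 were Ackr1, a chemokine carrier of venules, at 2478 against 151.5 CPM, Selp at 2785 against 274.9 and Vwf at 661.9 against 179.1. The members were therefore also read within cells that hold venous markers. Cells with at least 3 of 6 venous markers (Selp, Ackr1, Vwf, Nr2f2, Vcam1 and Ephb4, each at 10 CPM) numbered 75 of 98 in TU_HEV, 50 in TU_EC and 85 in LN_HEV. Within them Notch4 stood at 28.6 CPM in TU_HEV and 98.7 in TU_EC, Dll4 at 79.2 and 181.8, Hes1 at 79.4 and 170.9, and Jag1 at 80.4 and 31.8. Notch1 was at 255.1 and 247.7 CPM in these venous-marker cells, 2 values that lay close together. Hey1 had the opposite order to the whole groups, at 52.0 CPM in TU_HEV (4 cells with a count) and 11.8 in TU_EC (5 cells), as had Gja5 at 7.07 and 0. Jag2 stood at 19.6 and 53.2 and Gja4 at 69.5 and 115.6 CPM. In LN_HEV cells of the same class Notch1 stood at 121.4, Notch4 at 4.67 and Hes1 at 28.6 CPM. A class by marker count is a range and not a cell type.

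Within TU_EC the members split by whether a cell also held other arterial genes. A cell was put in the arterial-marker class if at least 3 of Sema3g, Bmx, Sox17, Fbln5, Stmn2, Efnb2, Alpl and Vegfc reached 10 CPM. The class held 91 TU_EC cells, 7 of 98 TU_HEV cells and 0 LN_HEV cells. Near its limit, 72 TU_EC cells had 2 such genes and 45 had 3, and 19 TU_HEV and 17 LN_HEV cells had 2. Median totals were 754229 counts per cell inside and 583123.5 outside the class in TU_EC.

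Gja5 was nearly confined to the arterial-marker class of TU_EC, at 103.7 CPM inside and 0.181 outside, with 99.6% of its counts inside. Gja4 stood at 604.0 inside and 95.9 outside, a ratio of 6.30. By plate its ratio was 9.33, 3.23, 16.9 and 8.83 in poolA to poolD. Hey1 stood at 214.9 and 55.2 CPM, with ratios of 3.33, 4.49, 3.23 and 4.72 by plate. Every plate had more of these 3 genes inside the class.

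The other members differed less by this class in TU_EC. Dll4 stood at 539.3 CPM inside and 320.6 outside, Jag1 at 50.1 and 28.2, Jag2 at 108.8 and 65.4, Hes1 at 206.4 and 127.3 and Notch1 at 439.8 and 340.3. Notch4 was at 200.5 inside and 226.97 outside. By plate, Jag1 was lower inside the class in poolB (ratio 0.807), Jag2 in poolC (0.988) and Notch1 in poolD (0.901), and Notch4 was higher inside in poolB (1.24). Dll4 and Hes1 were higher inside in each of the 4 plates.

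Within TU_HEV the 7 cells of the class held 86.9% of the counts of Hey1 and 94.0% of those of Gja4, each in 4 of the 7. Hey1 stood at 554.7 CPM in them and 7.67 in the other 91 cells, and Gja4 at 821.1 and 4.82. With a limit of 4 arterial genes, 3 cells were left, with 61.4% and 49.0%. The 3 cells with the most Gja4 (2641, 2125 and 1519 CPM) were also the 3 with the most Hey1 (953.3, 824.0 and 1853 CPM). Without the cells of the class in any group, Hey1 was 23.7-fold higher in TU_HEV than in LN_HEV and 7.20-fold lower than in TU_EC. Gja4 was then 6.73-fold lower in TU_HEV than in LN_HEV, the opposite direction to the sum over all cells, while Notch1 (2.25-fold), Notch4 (6.61-fold), Jag1 (2.34-fold) and Hes1 (4.01-fold) stayed higher.

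**Figure D4:**
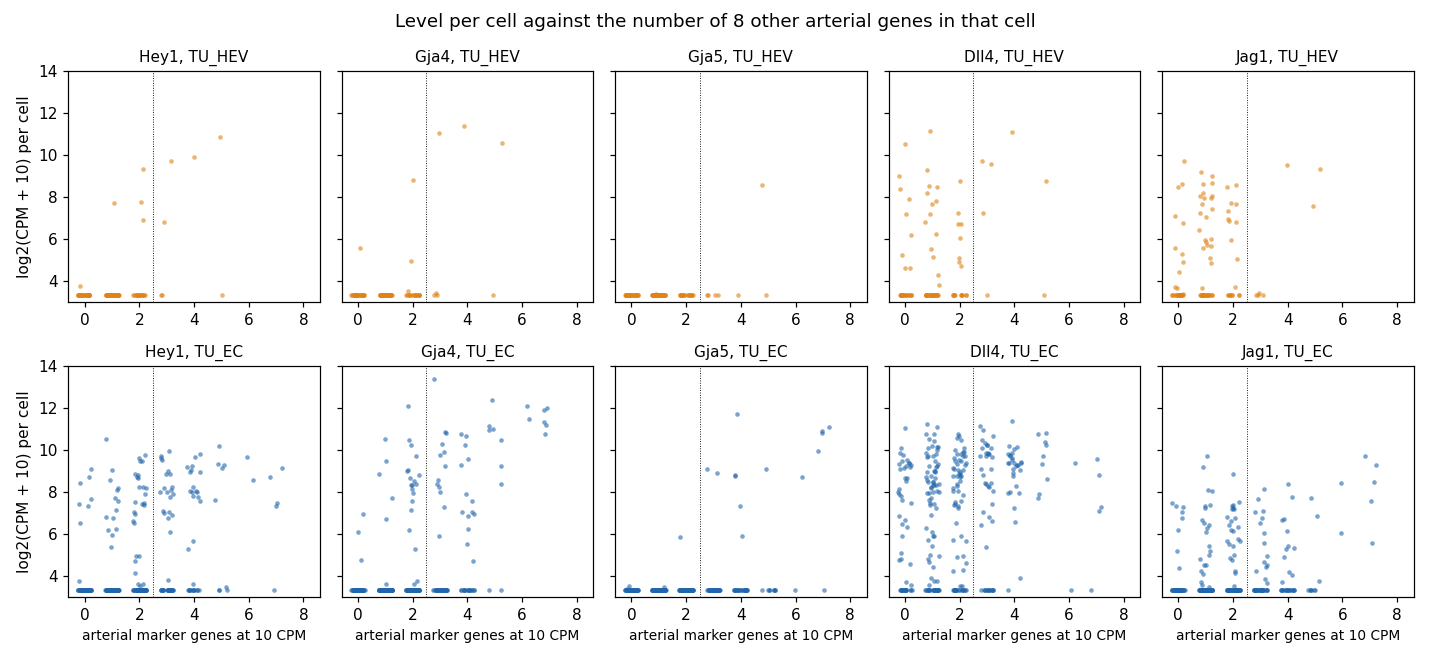
Level of 5 members in each cell, as log2(CPM + 10), against the number of 8 other arterial genes at 10 CPM in the cell, for TU_HEV (top) and TU_EC (bottom), with a dotted line at the limit of the class. Gja5 points above the base line lay almost all to the right of the limit, whereas Dll4 and Jag1 were spread over cells with 0 to 7 such genes.

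Tip cell markers separated the members another way. In TU_EC, a class was made of the cells with at least 3 of Esm1, Apln, Kcne3, Nid2, Angpt2 and Cxcr4 at 10 CPM. Dll4 stood at 507.3 CPM in them and 169.4 in the other cells, and Notch4 at 264.6 and 128.8. Gja4 was at 168.7 and 442.4 CPM and Gja5 at 12.5 and 75.6, lower in the tip-marker cells. Jag1 was at 29.3 and 47.1. In TU_HEV 11 of 98 cells had 3 tip markers, with Notch4 at 223.9 against 36.6 CPM, Dll4 at 357.6 against 73.8 and Hes1 at 408.9 against 66.7. Gja4 had the opposite order to TU_EC there, at 257.5 CPM in the tip-marker cells and 45.6 in the others, while Jag1 stood at 67.3 and 90.1.

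TU_HEV cells also differed by Chst4, whose product adds the sulfate that the MECA-79 antibody needs, so that the gene is tied to the sort. Chst4 reached 10 CPM in 41 TU_HEV cells (25 of pool3 and 16 of pool4) and not in 57, with median totals of 1704219 and 1213189 counts. Gja4 had 0 counts in the first and 142.1 CPM in the second. Hey1 stood at 1.92 and 102.04 CPM, Notch4 at 15.7 and 103.8, Dll4 at 53.4 and 165.003, Jag2 at 11.2 and 42.0, Jag1 at 56.6 and 115.7, Hes1 at 75.5 and 145.4 and Notch1 at 193.8 and 344.4. The summed CPM of all 8 was lower in the Chst4-positive cells of both plates. The share of cells with a count, without thinning, was not lower for all: it was 85.4% of Chst4-positive and 73.7% of Chst4-negative cells for Notch1, 63.4% and 59.6% for Hes1 and 51.2% and 50.9% for Jag1. The difference was small in pool3 for Dll4 (79.0 against 81.5 CPM) and Hes1 (91.2 against 101.6).

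The comparison with lymph node depended on which of these cells were used. Chst4-positive TU_HEV cells alone were above LN_HEV by 1.94-fold for Notch1, 2.06-fold for Notch4, 1.67-fold for Jag1, 2.96-fold for Hes1 and 5.95-fold for Hey1, the last at under 10 CPM in both. For Dll4 and Jag2 the ratios were 0.828 and 0.798. For Chst4-negative TU_HEV cells the same ratios were 3.45 for Notch1, 13.6 for Notch4, 3.40 for Jag1, 5.69 for Hes1, 315.5 for Hey1, 2.56 for Dll4 and 3.00 for Jag2. Their ratios to TU_EC were 0.924 for Notch1, 0.949 for Hes1 and 0.950 for Hey1. The ratio of Hey1 rests on 7 of 57 Chst4-negative cells with a count (12.3%), against 33.0% of TU_EC cells, without thinning. The ratios of other members lay further from 1, at 0.476 for Notch4, 0.421 for Dll4, 0.528 for Jag2 and 0.542 for Gja4. Gja5 had 0.325 (1 cell with a count) and Jag1 3.27. This split was added after the data were seen, and its part in the ratios between gates was not tested.

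Members were also found together in single cells. After thinning, the median cell had a count of 2 members in LN_HEV, 2 in TU_HEV and 4 in TU_EC, and 5 or more members were found in 2.10%, 14.3% and 45.3% of cells. In TU_EC, 87.4% of Dll4-positive cells also had Notch4, against 44.2% of cells without Dll4. Of 67 Gja4-positive cells 42 had Hey1 (62.7%, against 21.9% of the others), and of 14 Gja5-positive cells 12 had Gja4 (85.7%, against 19.2%). In TU_HEV 17 of 36 Dll4-positive cells had Notch4 (47.2%, against 14.5%) and 4 of 7 Gja4-positive cells had Hey1. In LN_HEV, Notch4 was in 5 of 48 Dll4-positive cells (10.4%) and in 12.6% of cells without Dll4, with no such excess.

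Correlations across cells are given as descriptions. Cells of 1 plate share a library preparation, and detection rises with depth, which thinning to 100000 counts evens out. Across 300 TU_EC cells, the mean Pearson r of log2(CPM + 10) within the 4 plates was 0.49 for Hey1 and Gja4, 0.45 for Notch4 and Dll4 and 0.44 for Gja4 and Gja5. Over plates these coefficients ran from 0.37 to 0.55, from 0.35 to 0.53 and from 0.18 to 0.54. Jag1 with Gja4 had 0.33, and Hes1 had a coefficient from -0.08 to 0.07 with every other member. In 98 TU_HEV cells Hey1 with Gja4 had 0.67 (0.64 to 0.71 over plates) and Notch4 with Dll4 had 0.42 (0.30 to 0.54). The coefficient of Hey1 with Gja4 rests on 7 cells with Gja4 and 9 with Hey1. In pool3 only 1 cell had Gja4.

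**Figure D5:**
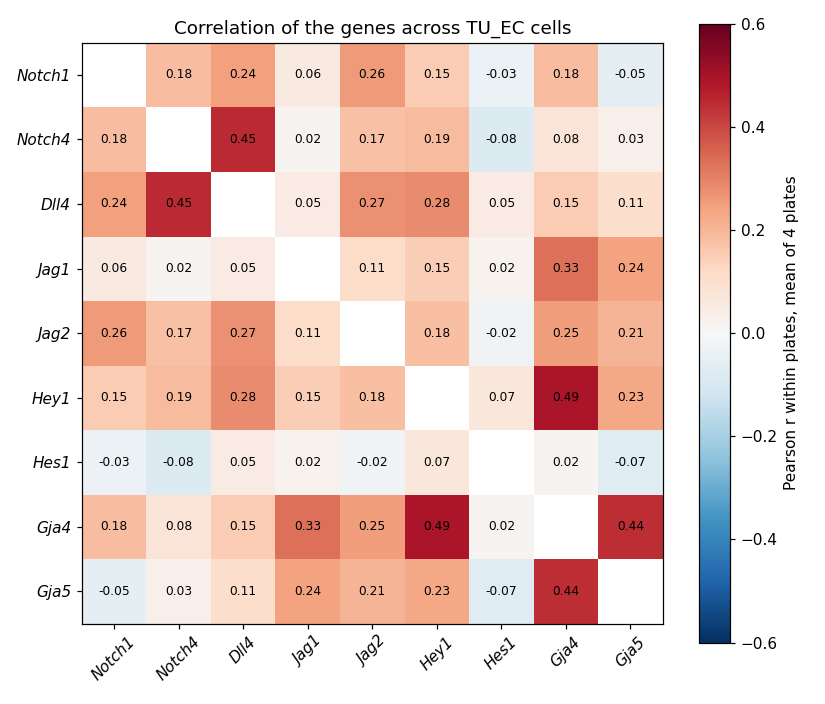
Pearson r between members across 300 TU_EC cells, within plates and averaged over 4 plates, in red where positive and blue where negative. Notch4 with Dll4 had 0.45, and Hey1, Gja4 and Gja5 had 0.23 to 0.49 with one another. Other pairs also lay in that range, such as Jag1 with Gja4 at 0.33 and Dll4 with Hey1 at 0.28, so these are not separate groups. Hes1 stood near 0 with all others.

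The genes most like each member in TU_EC cells were sought among 7971 genes with a count in at least 10% of cells. A gene was named if its mean r was at least 0.4 and r was at least 0.2 in each plate, up to 3 per member. For Dll4 these were Igfbp3 (0.59), the basement membrane gene Nid2 (0.48) and the polyamine enzyme gene Sat1 (0.47), and for Notch4 Igfbp3 (0.50), the semaphorin Sema6d (0.42) and the collagen chain Col4a2 (0.41). For Gja4 they were the phosphodiesterase gene Smpdl3a (0.51), the sialyltransferase gene St8sia6 (0.47) and Stmn2 (0.45), and for Gja5 Stmn2 (0.48), the growth factor gene Pdgfd (0.44) and the laminin chain Lama3 (0.42). Notch1, Jag1, Jag2, Hey1 and Hes1 had no gene past this limit, with highest means of 0.29 (Egfl7), 0.31 (Smpdl3a), 0.39 (Col18a1), 0.37 (Oaz2) and 0.32 (Arf4).

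Markers of other cells were low where the members were compared. The 6 epithelial and tumour genes had 0 counts in LN_HEV and TU_HEV and summed to 0.284 CPM in TU_EC. The 6 leukocyte genes summed to 15.6, 4.84 and 2.04 CPM in LN_HEV, TU_HEV and TU_EC, with Ptprc at 0 in both tumour groups. Both lists had also served to filter cells, so low sums in retained cells were partly set by the filter. The immediate early genes, which respond to tissue handling, summed to 4440, 5694 and 2768 CPM in the same order. Ribosomal RNA features took 13.6%, 8.13% and 25.4% of counts. Leaving ribosomal RNA and mitochondrial features out of the totals moved none of the 27 ratios by over 1.5 times. The part of the immediate early genes in the members' ratios was not tested.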

How the data were processed

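Single mouse endothelial cells were sequenced by Smart-seq2, a full-length cDNA method without molecular identifiers (23 PCR cycles, 75 bp single-end reads), on 8 plates of 96 wells, per the labels' protocols. The deposited values are raw counts per gene and cell. The submitters' processing notes name FastQC 0.11.4, STAR 2.4.1b, Subread 1.4.6-p2 and the build GRCm38.

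From 51826 listed features, rows with a repeated symbol were summed to 51734. Cells were retained with at least 50000 counts, 1000 genes and at most 30% mitochondrial counts, with at least 2 of 5 pan-endothelial genes at 10 CPM, and with fewer than 3 of the 6 genes of each of the leukocyte, epithelial and mural lists. The 11 pool1 libraries numbered 22, 24, 25, 27, 28, 30, 32, 34, 35, 37 and 38 were dropped. Counts were summed per group or plate and scaled to CPM. Intervals are 95% exact Poisson for levels, exact conditional for ratios and Clopper-Pearson for shares. A group with 0 counts was set to a floor of 3 counts over the group (0.0206, 0.0205 and 0.0135 CPM in LN_HEV, TU_HEV and TU_EC). Shares and correlations used cells thinned to 100000 counts, leaving out 1 LN_HEV and 3 TU_EC cells. A feature was called at 2-fold and 10 CPM in the higher group. Positions and exon lengths come from GENCODE M21 (GRCm38). Of 24 other arterial genes, 23 were found by symbol among the features.

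All members were described. From the gene lists, up to 6 genes each way per comparison were named, with 10 CPM and a 2-fold ratio in every pair of plates, largest first. Members and lists were chosen with earlier results of these data known. No doublet caller was run on these plate-sorted cells. Alternatives covered the filters, scaling, weighting, thinning, fold, plates, held libraries and cell classes. Python 3.11.15 with numpy 2.4.6, pandas 2.3.3, scipy 1.17.1 and matplotlib 3.10.9 was used, and the calculations were tested on simulated data.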

Additional observations from a re-analysis of the deposited data

Results flagged for a closer look

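The 11 pool1 libraries that were dropped, although labelled LN_HEV, had 4 members at levels more than 2-fold above the other 64 pool1 cells. Notch4 stood at 20.7 CPM in them, against 9.19. Jag1 stood at 77.1 CPM against 11.6, Hes1 at 45.5 against 20.4, and Hey1 at 4.46 against 0 counts. Dll4 was at 48.7 CPM against 46.5, and Jag2 was lower, at 10.7 against 15.7, as was Gja5, at 0 counts against 1.39 CPM. These libraries held the counts of 19 TU_HEV libraries, which made up from 49.4% to 99.997% of a holder's counts.

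Heyl, with 0 counts in all retained cells and in every LN_HEV and TU_HEV well, was present in 4 TU_EC wells that the filters left out. It stood at 845 CPM in 1 well of poolA, at 147.5 in 1 well of poolC and at 671 and 396 in 2 wells of poolD. Each of the 4 wells had 4 or 5 of the 6 mural and fibroblast genes at 10 CPM.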

How the results depend on the processing

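Each of 27 ratios (9 members with counts, 3 comparisons) was recomputed under 26 other settings. Under TMM, median-of-ratios, without ribosomal RNA and mitochondrial features or without the 20 highest features in the totals, all 27 kept their direction and none moved by over 1.5 times, but the count of members 2-fold higher in TU_HEV than in TU_EC went from 1 to 0, as it did for Chst4-positive TU_HEV cells only and at a 4-fold limit. At 4-fold, the 6 members higher in TU_HEV than in LN_HEV became 3 and the 6 lower than in TU_EC became 1. With Chst4-positive cells only, 2 were higher and 1 lower than in LN_HEV, and with Chst4-negative cells only, 3 were lower than in TU_EC. Without the arterial-marker cells 1 was lower than in LN_HEV. The cause of these shifts was not tested. Over the plates left out in turn, the log2 ratio of TU_HEV over LN_HEV ran from -0.17 to 1.83 for Gja4 and from -3.62 to 7.35 for Gja5, both lowest without pool4. The ends for Gja5 are bounds, at most and at least, since pool3 and pool2 had 0 counts. Without the highest cell of each group, Gja5 had -1.58, which is 1 TU_HEV count against the floor of 3 and gives no direction. Without the arterial-marker cells, Gja4 had -2.75 and Gja5 -6.26 (1 TU_HEV count), and Gja5 in LN_HEV over TU_EC 1.66. With Chst4-positive cells only, Gja4 had at most -9.58, against the floor, and Gja5 -5.34 (1 TU_HEV count). No paired analysis was possible because the labels name no animals, the replicate numbers only number the wells of a gate, and no result comes from a test.

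The number of cells limits these values. Hey1, Gja4 and Gja5 rest on 9, 8 and 2 TU_HEV cells and on 2, 23 and 1 LN_HEV cells. Intervals of levels and ratios cover counting error only. Those of shares take cells as independent draws, and none covers a spread between animals. Without the arterial-marker cells, the correlations of Gja4 with Smpdl3a and Stmn2 and those of Gja5 have no value. A partner gene needed a count in at least 10% of the remaining cells, and Gja5 had 0 counts outside the class in poolB.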
